A study of Mus musculus with 3 samples.

Results

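The 10 genes described here encode C-type lectin receptors of myeloid cells and lie on mouse chromosome 6. They were taken by symbol: Clec4a1, Clec4a2, Clec4a3, Clec4d, Clec4e, Clec4n, Clec5a, Clec7a, Clec9a and Clec12a, 10 of the 55536 annotated genes in the deposited tables. RNA of the chromatin fraction, which holds nascent and nuclear-retained transcripts, was sequenced after ribosomal RNA depletion from primary macrophages grown from C57BL/6J bone marrow. The single group had 3 biological replicates: cells were kept with Lipid A, the TLR4-activating part of lipopolysaccharide, at 100 ng/ml for 12 h, then without it for 12 h, and were collected at minute 0 of another exposure. No untreated cells were analysed here, so no value below measures a response to Lipid A. The 3 libraries carry 1 donor identifier, and the labels give neither age nor sex nor whether the cultures came from separate animals; the spread between them may therefore be technical. Starting RNA was 1000 ng, 250 ng and 500 ng in replicates 1, 2 and 3.

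C-type lectin receptors bind sugars, lipids or proteins of microbes and of damaged cells at the macrophage surface. Some have a short tail and signal through a partner with an activation motif: Clec4e (Mincle, a receptor for mycobacterial glycolipids), Clec4d (MCL, which pairs with Mincle) and Clec4n (Dectin-2, a receptor for fungal mannans) use the Fc receptor gamma chain, encoded by Fcer1g, and Clec5a uses DAP12, encoded by Tyrobp. Clec7a (Dectin-1, a receptor for fungal beta-glucans) and Clec9a (DNGR-1, which binds actin exposed on dead cells) carry an activating motif in their own tails and recruit the kinase Syk. Clec4a2 (DCIR) and Clec12a (MICL) carry an inhibitory motif that recruits phosphatases such as the product of Ptpn6, and Clec4a1 and Clec4a3 belong to the same Clec4a family as DCIR.

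The libraries were of unequal depth and makeup. Expected counts in annotated genes summed to 11802407, 17201281 and 19428384 in replicates 1, 2 and 3. All 7 macrophage markers reached 1 TPM in each library, against 46.1% of protein-coding genes. Their TPM summed to 770, 1009 and 906, and Adgre1, which encodes F4/80, was at 287, 434 and 320 TPM. Replicate 3 stood apart through 8 stromal markers, which summed to 0.04, 1.71 and 582 TPM in replicates 1, 2 and 3, with Col1a1 at 0.01, 0.43 and 149 TPM. The 8 neutrophil markers summed to 0.71, 0.93 and 1.77 TPM with Mpo at 0 in every library, the 3 monocyte markers to 5.89, 2.40 and 2.05 TPM, and the 4 natural killer markers to 0.07, 0.03 and 0.04 TPM. Values that rest on replicate 3 are given below with and without it; in bulk RNA, fewer cells of a type and less RNA per cell cannot be told apart.

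Junction and upstream sequences are shown because Clec4e models differ in whether exon 2 runs on into an intron and Clec7a models differ by a few bases, and because 1 motif recurred upstream of the genes. In Clec4e (mm10, minus strand), exon 2 ends at position 123288894 of chromosome 6. Model Clec4e-206 reads on into intron 2, while the coding model Clec4e-201 joins exon 3, whose first base is at 123286518. The transcript sequences are GENCODE M21, 5′ to 3′, with intron 2 in capitals in the first and exon 3 in capitals in the second.
Clec4e-206: tcaccagatgtgtcgGTGGGTTCTGATGAT
Clec4e-201: tcaccagatgtgtcgTAACATATCGCAGCT

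Clec7a (minus strand) has 3 models that differ where exon 2 meets the next exon. Models 201 and 204 have introns of 1895 bases each, displaced by 10 bases, so that 10 bases at the end of exon 2 in model 201 are exchanged for 10 others at the start of exon 3 in model 204. Read from the annotated start codon, model 201 gave 244 codons before its stop and model 204 met a TGA after 70 codons; model 202, which skips that exon, gave 199. The annotation gives model 204, and the gene, the type polymorphic pseudogene. Capitals mark the next exon in the same GENCODE M21 transcripts.
Clec7a-201: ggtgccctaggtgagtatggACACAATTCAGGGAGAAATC
Clec7a-204: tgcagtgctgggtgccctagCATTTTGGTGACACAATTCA
Clec7a-202: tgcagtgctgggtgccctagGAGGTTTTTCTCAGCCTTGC

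The hexamer GAGGAA, the core of sites for PU.1, the transcription factor of the myeloid lineage, was searched for on both strands in the 250 bases before each gene's start (RefSeq, GRCm38.p6) after the sequences had been seen. It was present before 7 of the 9 members with an entry: Clec12a, Clec4a1, Clec4a3, Clec4d, Clec4e, Clec5a and Clec7a. Of all 27025 genes with an entry, 25.9% had it. Clec4a2 and Clec9a did not have these letters in the window, and Clec4n had no entry. TGANTCA, the letters of an AP-1 site, was before 1 of the 9 (Clec12a), against 7.82% of all genes. A match is a description of letters and not of binding. Windows of 60 bases around the match are given on the gene's strand, with the motif in capitals (TTCCTC is GAGGAA on the other strand). Where a gene had several matches, the window is that of the one nearest its start; the Clec5a window holds both of its matches. For Clec12a the bases searched begin at 129349994, inside the first exon of the GENCODE model Clec12a-201 (129349964 to 129350511). Its GAGGAA and TGANTCA matches therefore lie within that exon and not before the start of that model. No window is printed for it.
Clec4e, chr6:123289895-123289954, minus strand: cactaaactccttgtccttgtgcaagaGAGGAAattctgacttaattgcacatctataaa
Clec4d, chr6:123261857-123261916, plus strand: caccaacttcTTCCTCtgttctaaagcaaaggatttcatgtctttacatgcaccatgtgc
Clec5a, chr6:40585828-40585887, minus strand: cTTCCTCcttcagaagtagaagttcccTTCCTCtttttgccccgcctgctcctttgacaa
Clec7a, chr6:129472843-129472902, minus strand: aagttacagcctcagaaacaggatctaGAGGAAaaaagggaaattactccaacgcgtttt
Clec4a1, chr6:122921634-122921693, plus strand: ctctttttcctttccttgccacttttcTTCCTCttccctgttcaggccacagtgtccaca
Clec4a3, chr6:122952567-122952626, plus strand: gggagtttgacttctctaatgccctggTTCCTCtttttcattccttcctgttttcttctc

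The lectin receptor genes were, as a set, well represented on chromatin. They were chosen with earlier results of these data known, so the shares below describe them and test nothing. Of the 10 members, 9 reached 1 TPM in each library, against 46.1% of the 22028 protein-coding genes, and 6 averaged 10 TPM or more, against 27.2%. TPM is a level per transcript length, scaled to the same total in each library. The members' median was 24.9 TPM over the mean of the 3 libraries, against 0.913 TPM over all protein-coding genes. By library the members' median was 20.8, 23.1 and 25.3 TPM, and that of all protein-coding genes 0.59, 0.80 and 1.18 TPM. Without replicate 3 the members' median was 21.9 TPM. The members' median percentile was 84.2 among all protein-coding genes, 5955 of which were at 0 in every library. It was 70.7 among those averaging at least 0.5 TPM. Shares of protein-coding genes exceeded by single members, given below, are over all of them.

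**Figure D1:**
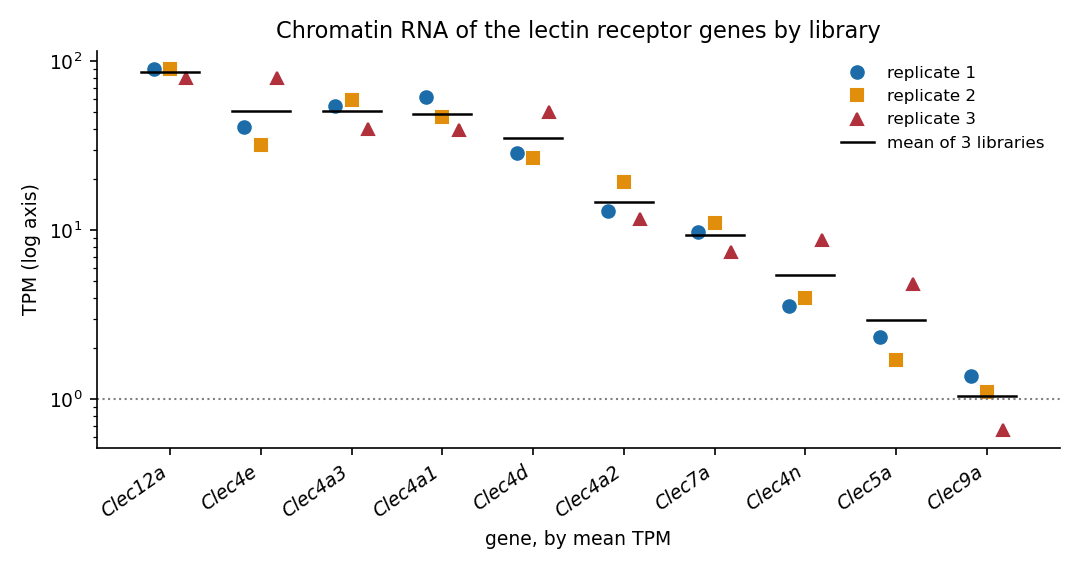
TPM (log axis) of the 10 genes in each of the 3 libraries, ordered by mean, with the mean as a bar and a dotted line at 1 TPM. Clec12a leads at a mean of 86.6 TPM and Clec9a is last at 1.05 TPM; in Clec4e, Clec4d, Clec4n and Clec5a the triangle of replicate 3 is the highest point, and in the other 6 genes it is the lowest.

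Among the receptors with an inhibitory motif, Clec12a (mm10, chromosome 6, 129342691 to 129365303, plus strand) was the highest member. It was at 90.4, 90.2 and 79.2 TPM in replicates 1, 2 and 3, a mean of 86.6 ± 6.39 TPM (SD, n = 3) that exceeded 96.8% of protein-coding genes. The 3 values lie close together, with a coefficient of variation of 7.38%. Clec4a2 (123106428 to 123143999, plus strand) was at 13.0, 19.4 and 11.6 TPM, with replicate 2 the highest, and averaged 14.7 ± 4.16 TPM.

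Their relatives Clec4a3 and Clec4a1 were higher than Clec4a2 in every library. Clec4a3 (122952515 to 122969875, plus strand) was at 54.5, 58.7 and 39.6 TPM, a mean of 50.9 ± 10.02 TPM. Clec4a1 (122921848 to 122934619, plus strand) was at 61.3, 46.8 and 39.1 TPM, a mean of 49.1 ± 11.3 TPM. Replicate 3 was the lowest library for both genes. Both exceeded about the same share of protein-coding genes, 93.3% for Clec4a3 and 92.9% for Clec4a1.

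The receptors that signal through the Fc receptor gamma chain spanned a wide range. Clec4e (123281789 to 123289870, minus strand) was at 40.9, 31.95 and 80.0 TPM, a mean of 51.0 ± 25.6 TPM. Clec4d (123262111 to 123275265, plus strand) was at 28.5, 26.8 and 49.9 TPM, a mean of 35.1 ± 12.8 TPM. Clec4n (123229843 to 123247021, plus strand) was at 3.55, 3.99 and 8.74 TPM, a mean of 5.43 ± 2.88 TPM. In each of the 3 genes replicate 3 lay above both other libraries. Without it, the means of replicates 1 and 2 were 36.4 TPM for Clec4e, 27.7 TPM for Clec4d and 3.77 TPM for Clec4n. Clec5a (40574894 to 40585821, minus strand), the receptor with DAP12 as its partner, was at 2.33, 1.72 and 4.81 TPM, a mean of 2.95 ± 1.64 TPM, again with replicate 3 the highest; replicates 1 and 2 averaged 2.02 TPM.

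The receptors with an activating motif of their own were low to moderate. Clec7a (129461591 to 129472779, minus strand) was at 9.76, 11.0 and 7.48 TPM, a mean of 9.42 ± 1.80 TPM. Clec9a (129408862 to 129424763, plus strand), a gene best known from type 1 dendritic cells, was at 1.37, 1.11 and 0.66 TPM, a mean of 1.05 ± 0.36 TPM from 31, 32 and 28 counts. It was the 1 member with a library, replicate 3, under 1 TPM. Of 8 dendritic markers, 4 were under 1 TPM in every library, close to the 47.4% of protein-coding genes that were; Xcr1 was at 0.06, 0.07 and 0.11 TPM and Batf3 at 4.41, 8.11 and 4.26 TPM. Clec9a overlaps Clec1b and the sense-intronic gene Gm43914 on its own strand, and Clec1b was at 2.87, 2.62 and 2.12 TPM, so reads of the shared stretch are uncertain.

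By mean TPM the order was Clec12a, Clec4e, Clec4a3, Clec4a1, Clec4d, Clec4a2, Clec7a, Clec4n, Clec5a and Clec9a. Of the 9 pairs of neighbours in that order, 3 had ranges that did not overlap over the 3 libraries: Clec4d above Clec4a2 (lowest 26.8, highest 19.4 TPM), Clec4a2 above Clec7a (lowest 11.6, highest 11.0 TPM) and Clec5a above Clec9a (lowest 1.72, highest 1.37 TPM). The ranges of the other 6 pairs overlapped. Within libraries, 1 of these 6 pairs kept its order in 3 of 3, Clec4n above Clec5a, with a mean log2 ratio of TPM of 0.89 ± 0.30 (SD, n = 3); the other 5 changed order between libraries. A sign-flip test over 3 libraries cannot give a two-sided p below 0.25, so no pair was tested. Without replicate 3 the ranges were apart in 8 of 9 pairs, and Clec4e moved behind Clec4a3 and Clec4a1 to place 4.

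The levels depend on the effective length given to each gene, which follows the transcripts its reads were assigned to. Clec4e had an effective length of 3732 to 3827 bases, from long intron-containing models, and Clec4d one of 535 to 614 bases. In expected counts Clec4e had 1796, 1722 and 5177 and Clec12a 2278, 2809 and 3114, so Clec4e held the most counts of the 10 in replicate 3. Clec4d had 206, 202 and 522 counts. In the read-based quantification the mean was 58.1 ± 21.9 TPM for Clec4d, 1.66 times the alignment-based mean, 29.2 ± 6.20 TPM for Clec4a2 (1.98 times) and 12.4 ± 6.73 TPM for Clec4n (2.29 times). For Clec4e and Clec12a the corresponding ratios were 1.04 and 1.15. The order by mean changed with it. Clec4a1 (67.0 TPM), Clec4a3 (61.9 TPM) and Clec4d stood above Clec4e (53.1 TPM) in the read-based quantification. Clec4n stood above Clec7a (11.0 TPM) there.

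Replicate 3 divided the members along the lines of their signalling partners, a split seen in the values and not fixed beforehand. On TMM-normalized CPM, counts scaled by library size, which compare 1 gene between libraries, the 4 receptors with a separate activating partner were highest in replicate 3: Clec4e at 150, 106 and 259 CPM, Clec4d at 17.2, 12.4 and 26.2 CPM, Clec4n at 3.51, 2.45 and 6.52 CPM and Clec5a at 5.52, 3.31 and 8.92 CPM. The other 6 were lowest there, for example Clec4a3 at 58.1, 43.5 and 31.2 CPM and Clec12a at 190, 172 and 156 CPM. Of all genes tested, 32.5% were highest in replicate 3 and 30.7% lowest, against 4 and 6 of the 10 members. The 4 of 10 is near the share of all genes. The ratio of replicate 3 to the mean of the other libraries was 1.77 to 2.18 for the 4 genes and 0.615 to 0.860 for the 6. Over all 14839 genes tested its median was 0.993, with a 10th percentile of 0.751 and a 90th of 1.43. Of these genes 5.14% had a ratio at or above the lowest of the 4 members, and 22.8% one at or below the highest of the 6.

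**Figure D2:**
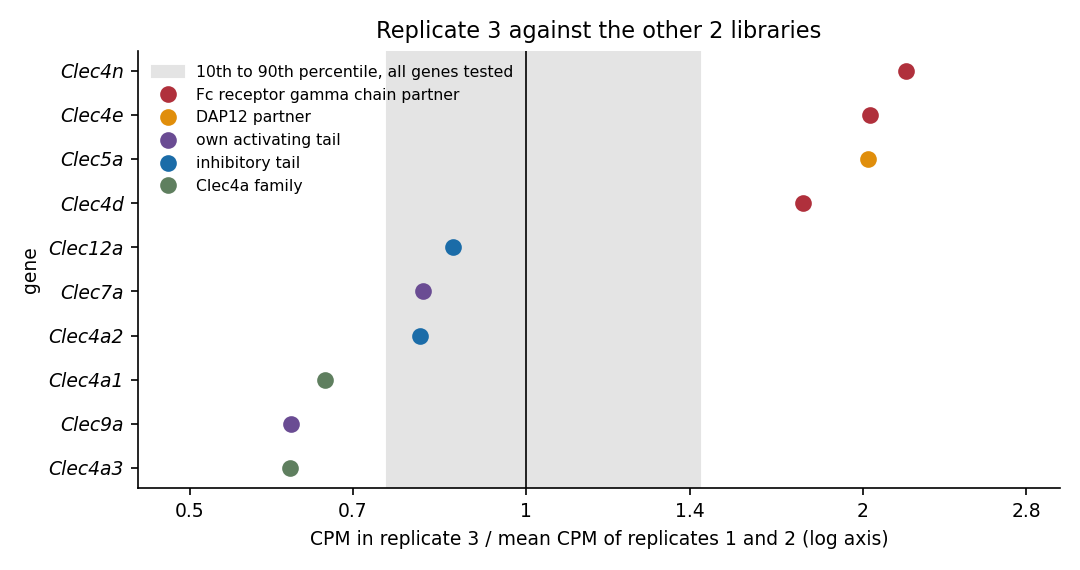
CPM in replicate 3 over the mean CPM of replicates 1 and 2 (log axis) for each gene, coloured by the way the receptor signals; the grey band is the 10th to 90th percentile of the 14839 genes tested. Clec4n, Clec4e, Clec5a and Clec4d lie right of the band at 1.77 to 2.18, and Clec4a1, Clec9a and Clec4a3 lie left of it.

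The same 4 genes were highest in replicate 3 in the read-based tables, where 5 of the other 6 were lowest there. Between the remaining libraries replicate 1 had the higher CPM of the 4 genes, with log2 ratios over replicate 2 from 0.47 in Clec4d to 0.74 in Clec5a; this held for 8 of the 10 members, against 49.2% of all genes tested; in TPM, Clec4n was lower in replicate 1 (3.55) than in replicate 2 (3.99). Replicate 3 is the library with the stromal transcripts, 582 TPM against 0.04 and 1.71, with all 8 stromal markers at their highest there; the part of this in the members' values was not tested.

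None of the 10 members was called more variable between libraries than genes of its abundance. In edgeR's quasi-likelihood fit, with Benjamini-Hochberg adjustment over 14839 genes, 0 of 10 passed an adjusted p of 0.05, against 0.162% of all genes. On simulated counts the same test found 24% of genes changed 2-fold in 1 library and 100% of those changed 4-fold. The simulated spread was the same for every gene and lower than the common coefficient of variation of these data, 21.2%. Only genes averaging at least 50 counts were changed. The shares found may therefore be too high for these data. The 0 of 10 cannot show that changes of about 2-fold, or larger ones, are absent. Clec4e came nearest, with a quasi-dispersion 15.4 times the trend and an edgeR adjusted p of 0.342. At an unadjusted p under 0.05 in the same edgeR fit there were 5 of 10 members (Clec4e, Clec4a1, Clec4d, Clec4a3 and Clec5a), against 5.81% of all genes, and a DESeq2 dispersion outlier flag marked 0 of 10. Clec12a and Clec7a were below the trend, at 0.735 and 0.501 times. Without replicate 1, 2 or 3, 4, 3 and 1 of 10 members were at an unadjusted p under 0.05 in edgeR, against 5.66%, 4.88% and 5.94% of the genes tested in each fit.

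Of the 10 genes, 6 lie in 1 cluster, and their positions followed the same division. For these 6 genes, position and signalling partner cannot be told apart. Read along the chromosome from Clec4a1, the cluster holds Clec4a1, Clec4a3, Clec4a4, Clec4b1, Clec4a2, Clec4b2, Clec4n, Clec4d and Clec4e. In TPM, replicate 3 over the mean of the others was 0.722 for Clec4a1, 0.7004 for Clec4a3 and 0.717 for Clec4a2, whereas the adjacent genes at the far end were at 2.32 for Clec4n, 1.80 for Clec4d and 2.20 for Clec4e. Between Clec4a2 and Clec4n lies Clec4b2, listed at 0 in every library. Between Clec4a3 and Clec4a2 lie Clec4a4, at 1.80, 5.04 and 0.56 TPM from 12, 36 and 5 counts, and Clec4b1, at 0.37, 0.88 and 0.68 TPM; Clec4a4 was lowest in replicate 3 and Clec4b1 in replicate 1.

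**Figure D3:**
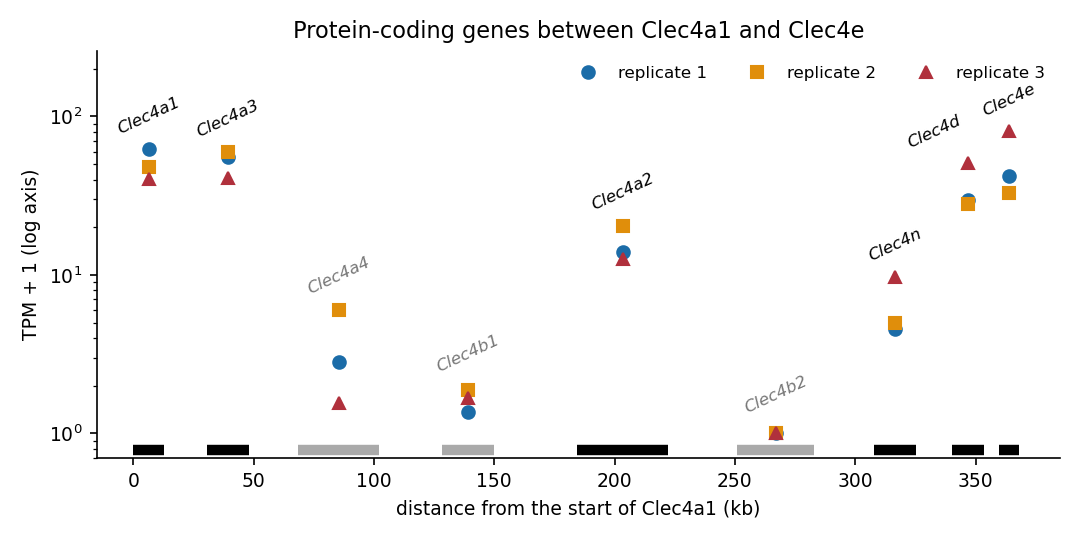
TPM + 1 (log axis) in each library of the 9 protein-coding genes of the cluster against the distance from the start of Clec4a1 in kb; bars at the bottom are the gene bodies, black for the receptor genes described and grey for the rest. Replicate 3 is the lowest of the 3 points in Clec4a1, Clec4a3 and Clec4a2 and the highest in Clec4n, Clec4d and Clec4e.

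In the transcript tables the members differed in how much of their RNA was assigned to intron-containing models. Clec4e, Clec12a, Clec4d and Clec7a have a model annotated as retained intron; the other 6 have none, so that no such share can be given for them. The median share of counts in these models was 48.8% over the 4 genes, against 30.8% over 6553 genes with such a model and at least 20 counts in every library, whose quartiles were 11.8% and 55.9%. By library the 4-gene median was 46.0%, 53.6% and 46.8%.

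Most counts of Clec4e were assigned to intron-containing models. Its retained-intron models held 89.1%, 92.8% and 91.5% of its counts, a mean of 91.1 ± 1.85% (SD, n = 3), above 97.0% of the 6553 genes. With 1796 counts in replicate 1 the 95% Wilson interval of that share was 87.6% to 90.5%, which covers counting error only. Model Clec4e-206 keeps the 2375 bases of intron 2, as in the first Clec4e junction shown above, and Clec4e-205 also keeps the 72 bases of intron 3. They had 850, 746 and 2004 counts and 751, 852 and 2644 counts in replicates 1, 2 and 3, against 192, 122 and 435 for the fully spliced Clec4e-201. The remaining retained-intron model, Clec4e-203, keeps intron 3 only and had 0, 0 and 86.3 counts. The share lay close together in the 3 libraries, while the counts were highest in replicate 3. As a share of TPM, which allows for the length of the kept introns, it was 83.4 ± 2.85%, and in the read-based tables the share of TPM was 66.7 ± 2.40%, above 76.9% of 7868 genes.

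Clec12a had 52.9%, 68.5% and 59.3% of its counts in retained-intron models, a mean of 60.2 ± 7.84%. Nearly all of it was Clec12a-202, which keeps the last 2606 of the 4779 bases of intron 4 and had 1139, 1863 and 1793 counts, against 1071, 885 and 1267 for the coding Clec12a-201. Clec12a-203, with 174 of the 196 bases of intron 2, had 66.3, 61.0 and 54.1 counts. As a share of TPM the retained-intron models of Clec12a held 61.1 ± 6.82%. Clec4d was more even: Clec4d-202, with 270 of the 829 bases of intron 3, held 37.4 ± 2.71% of counts, the coding Clec4d-201 51.2 ± 7.26%, and a model annotated for nonsense-mediated decay 11.4 ± 4.73%. As a share of TPM the order turned, with 62.3 ± 1.63% for Clec4d-202 and 27.8 ± 5.33% for Clec4d-201. Clec7a-203, with 349 of the 1895 bases of intron 2, held 25.5 ± 9.35% of counts and 54.8 ± 9.54% of TPM. In these 3 genes the models keep part of an intron, so reads from other introns would not be counted in them.

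**Figure D4:**
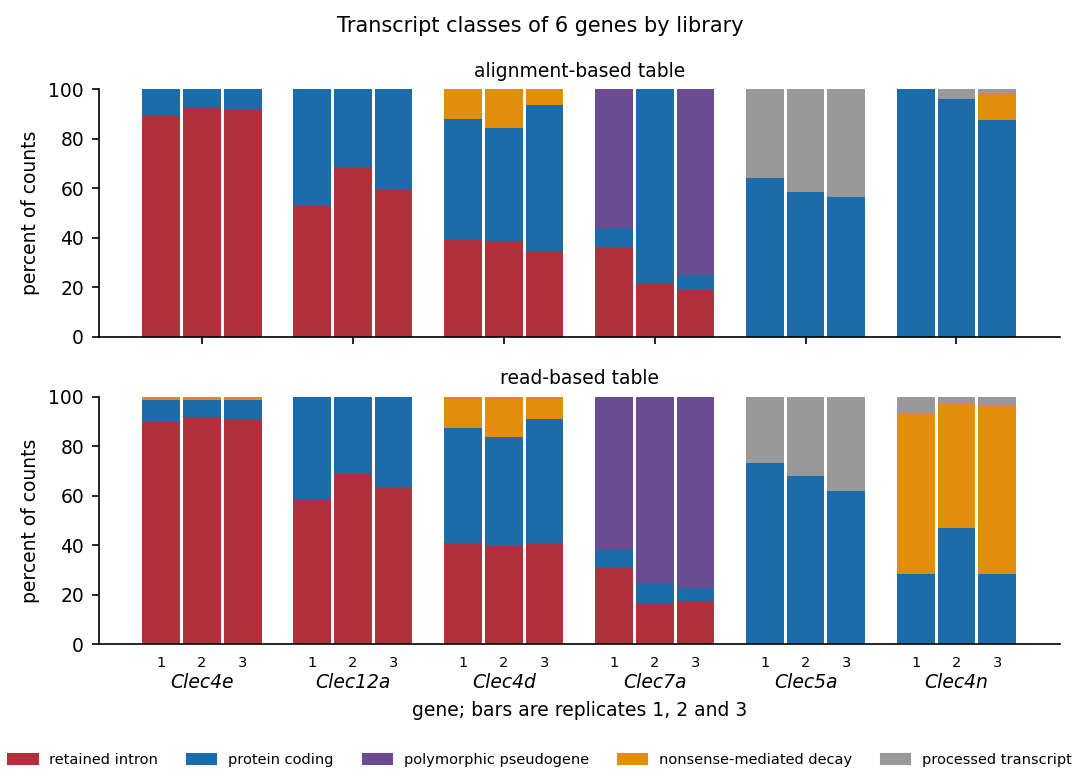
Percent of each gene's counts by annotated transcript class in replicates 1, 2 and 3, for the 6 genes with more than 1 class, from the alignment-based tables (top) and the read-based tables (bottom). Retained-intron models fill most of the Clec4e bars in both panels, while Clec7a changes class between libraries in the top panel and Clec4n changes class between the panels.

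Which model of Clec7a was expressed was not settled by these tables. The alignment-based tables gave the coding model 201 0, 99.8 and 0 counts and the polymorphic-pseudogene model 204 52.4, 0 and 99.8 counts in replicates 1, 2 and 3. In no library did both models receive counts. The read-based tables gave model 201 0 counts in every library and model 204 110, 251 and 207 counts. The models share all but the junction bases printed above and 5 bases at the start, so the reads over these bases are what tells them apart, and the change between libraries is not a difference that the replicates support. Model 202, without the middle exon, was low in both: 7, 11.7 and 8.17 alignment-based counts.

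Clec4n also depended on the quantification. Coding models held 94.5 ± 6.31% of its alignment-based counts, but 34.5 ± 10.6% of the read-based ones, where the nonsense-mediated decay model Clec4n-205 led with 67.5, 81.0 and 276 counts, against 0, 0 and 14.2 in the alignment-based tables. In Clec5a, the non-coding Clec5a-201 held 40.4 ± 3.86% of the alignment-based counts, 60.7 ± 3.48% of the alignment-based TPM and 32.4 ± 5.76% of the read-based counts. Clec4a1 has 1 model, and all models of Clec4a2, Clec4a3 and Clec9a are coding. The leading model of Clec4a2 was Clec4a2-202 with 85.0 ± 6.37% of counts, that of Clec4a3 was Clec4a3-201 with 90.7 ± 4.62%, and that of Clec9a was Clec9a-201 with 89.1 ± 9.59%. In the read-based counts these shares were 42.0 ± 7.19%, 65.5 ± 7.89% and 68.2 ± 6.57%, in the same order, and as shares of alignment-based TPM 42.6%, 81.7% and 62.7%.

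The genes of the receptors' signalling partners were nearly all present on the same chromatin. The lists of adaptors, kinases and phosphatases were also chosen with earlier results of these data known. Of 17 adaptors and kinases, 16 reached 1 TPM in each library, against 46.1% of protein-coding genes; the median was 49.7 TPM, against 0.913 TPM. Fcer1g, the partner of Clec4e, Clec4d and Clec4n, was at 127, 98.2 and 87.0 TPM, and so was lowest in replicate 3, where these 3 receptors were highest. Tyrobp, the partner of Clec5a, was at 28.2, 27.4 and 36.1 TPM, highest in replicate 3. Syk, the kinase these receptors share, was at 291, 292 and 266 TPM, and Card9, the adaptor that links Syk to NF-kB, at 37.3, 57.6 and 54.1 TPM. The highest of the list were Prkcd (408, 403 and 387 TPM), a protein kinase C that acts on Card9, then Syk and the Src-family kinase Lyn (214, 184 and 136 TPM). The lowest was another Src-family kinase, Fgr, at 0.49, 0.40 and 1.28 TPM.

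Genes of the phosphatases that inhibitory motifs recruit were present as well. Of these, 3 of 3 reached 1 TPM in each library, against 46.1% of protein-coding genes. Inpp5d, which encodes the lipid phosphatase SHIP, was at 183, 257 and 159 TPM. Ptpn6 was at 125, 110 and 120 TPM and its relative Ptpn11 at 5.27, 7.48 and 8.78 TPM. In edgeR's fit 16 adaptor and kinase genes and 3 phosphatase genes were tested. An adjusted p of 0.05 in edgeR was passed by 0 of 16 and 0 of 3, against 0.162% of all genes. At an unadjusted p under 0.05 in edgeR there were 1 of 16 (Fcer1g) and 0 of 3, against 5.81% of all genes.

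**Figure D5:**
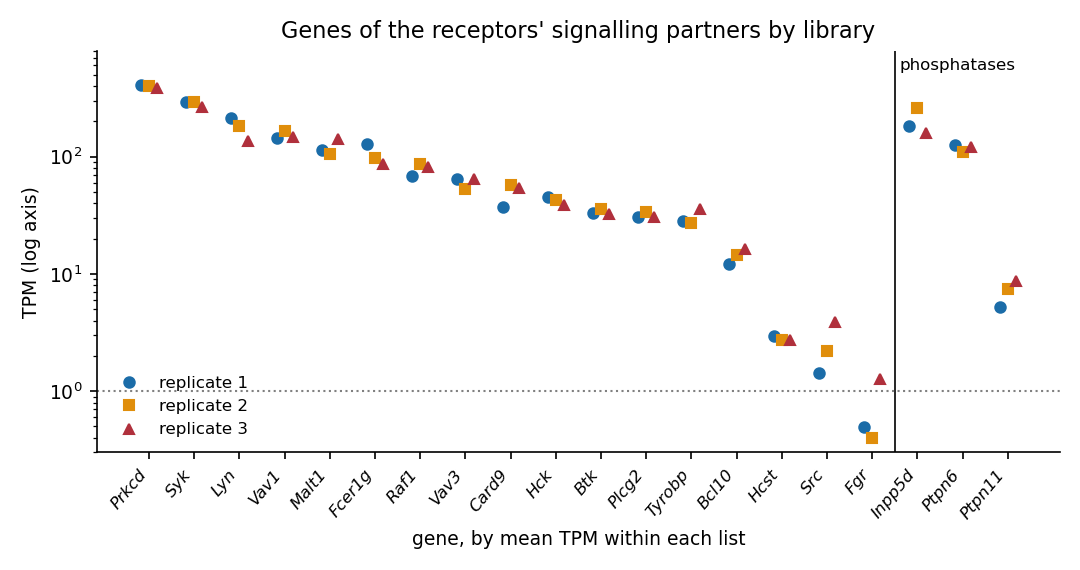
TPM (log axis) of 17 adaptor and kinase genes, left of the line, and 3 phosphatase genes, right of it, in each library, by mean within each list; the dotted line is 1 TPM. Prkcd and Syk lead the adaptors and kinases, and Fgr is the 1 gene with libraries under 1 TPM.

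Clec12a was matched against 7907 protein-coding genes of at least 5 TPM for the likeness of its pattern over the 3 libraries, as the distance between log2(TPM + 1) values centred on each gene's mean. The nearest were Mitf, at 52.4, 52.3 and 46.0 TPM (distance 0.0029), Blnk, at 63.1, 62.7 and 55.2 TPM (0.0034), and Cc2d1a, at 14.3, 14.3 and 12.4 TPM (0.0070). With 3 libraries this describes a small decrease in replicate 3 that the genes share, and none of the 3 was among the nearest in the read-based tables.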

How the data were processed

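Total RNA-seq of chromatin-bound RNA was analysed in 3 libraries of 1 group. The authors deposited unnormalized expected counts, estimates that can be fractional, for genes and transcripts. The TPM that the authors deposited cover every row of a table, tRNA and phiX rows included. Per the deposited README files, gene tables and alignment-based transcript tables come from a transcriptome alignment (mm10, GENCODE M21), and read-based tables hold estimated counts and TPM obtained from reads with an index. Tools, versions and strandedness were not given in the sources used here. Gene types and coordinates are from GENCODE M21. Rows without a gene took 1.31%, 0.476% and 0.240% of expected counts in replicates 1, 2 and 3 and were left out. A count of 3 equals 0.254, 0.174 and 0.154 CPM in these libraries.

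Expected counts were rounded and fitted with edgeR 4.0.16 in R 4.3.3 (filterByExpr, TMM, intercept only, robust quasi-likelihood prior). The quasi-dispersion of every gene was set against the trend with an F test, and p-values were adjusted by Benjamini-Hochberg over 14839 genes; they measure only the spread between these libraries. The steps were tested on simulated data, whose spread between libraries was set lower than the common coefficient of variation of these data, 21.2%. DESeq2 1.42.0 gave an alternative flag and size factors. Transcript shares are shares of a gene's alignment-based counts, with 95% Wilson intervals that cover counting error only. Other steps used Python 3.11.15.

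The members and gene lists were chosen with earlier results of these data known. Named are all members, their retained-intron transcripts and, except in Clec4a1, Clec4n and Clec5a, their leading transcripts. Also named are the 3 highest genes and the lowest of each list, and Fcer1g, Tyrobp, Syk, Card9 and Ptpn6. The 3 genes nearest in pattern to the highest member are named as well. Other genes were named after their values were seen. Alternatives were the other quantifications, rescaled TPM, other filters and scalings, and leaving out each library; values given as TMM-normalized CPM are not per length and were not used as levels.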

Additional observations from a re-analysis of the deposited data

How the results depend on the processing

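No paired analysis was possible because there is 1 group. Of 208 values under alternatives, 158 moved by less than the spread between replicates or the limit of 1.5 times for counts, and 50 moved further. Many of the 158 were fixed in advance. Leaving out 1 library cannot shift a single gene's mean level or share by more than the SD over the libraries. The alignment-based transcript TPM summed to the gene TPM up to rounding. The 158 are therefore no measure of stability. A change of direction was not scored. The members' median level, 24.9 TPM, was 41.1 TPM in the read-based tables and 57.8 TPM when TPM was rescaled to nuclear genes that are protein-coding or long non-coding. Leaving out 1 library gave 21.9 to 26.9 TPM. Neighbouring pairs with ranges apart, 3 of 9, numbered 3 to 8 with 1 library left out, the 8 without replicate 3 and 3 without either other library. The median retained-intron share, 48.8%, was 61.7% as a share of TPM, against 47.4% over the genes with such a model, and 46.4% to 50.2% with 1 library left out.

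No member was called more variable under any of the 8 alternatives, whose lowest edgeR adjusted p was 0.0519 without a filter on low counts. The number of all genes called moved from 24 to 677 without that filter, 180 at a mean of at least 50 counts, 36 with DESeq2 size factors, 155 by the DESeq2 flag, 0 when the prior was not estimated robustly (added after the data were seen) and 0 to 78 with 1 library left out. The cause of these moves was not tested. Of the members, Clec9a and Clec4n rest on the fewest counts, from 28 and from 40 a library.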

Other observations

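Of 9 other lectin-like genes in the chromosome 6 clusters, 4 reached 1 TPM in each library (44.4%, against 46.1% of protein-coding genes) and 4 stayed under it in each, against 47.4%. Clec2d, which encodes a ligand of natural killer receptors, was far above the members at 357, 324 and 357 TPM in replicates 1, 2 and 3. Cd69, an early activation marker, was at 8.03, 5.10 and 5.91 TPM, Clec1b at 2.87, 2.62 and 2.12 TPM, and Clec4b2 was listed at 0.

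Of 12 lectin receptor genes outside these clusters, 5 reached 1 TPM in each library (41.7%, against 46.1% of protein-coding genes). Mrc1, which encodes the mannose receptor of macrophages, was at 33.7, 38.0 and 54.1 TPM, Cd93 at 34.2, 36.6 and 35.6 TPM and Clec10a, a galactose-type lectin, at 8.54, 5.44 and 4.43 TPM. Cd209a was listed at 0 in every library. Mrc2, a collagen-binding relative of Mrc1, was at 0.03, 0.12 and 6.07 TPM, highest in the library with the stromal transcripts; it was named after its values were seen.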
